A study of Homo sapiens with 4 samples.

Results

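The 10 genes described here encode Krüppel-like factors, transcription factors of the KLF family, and were taken by name from a table of 28058 genes: KLF2, KLF3, KLF4, KLF5, KLF6, KLF7, KLF9, KLF10, KLF11 and KLF13. Their RNA was measured in SH-SY5Y, a human neuroblastoma line used as a model of neurons, in 2 untreated control libraries and 2 libraries labelled as given shock wave treatment (SWT). Poly(A) RNA was sequenced from cells harvested 6 h after treatment. Per the sample protocols, flasks filled with medium were held in a water bath at 37 °C, 7 cm from the applicator, and 300 impulses were applied at 3 Hz, each of 0.08 mJ/mm2. The series' own design text names treatment with exosomes, a discrepancy that the sources used here leave unsettled. No label calls the replicates separate cultures, so every p-value rests on the spread of 4 libraries of a single line, which may be technical.

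Krüppel-like factors carry zinc fingers at their C-terminal end with which they bind GC-rich and CACCC-containing DNA, and they differ in the parts that recruit activators or repressors. In endothelium, KLF2 and KLF4 are known as genes that laminar flow switches on through the kinases MEK5 and ERK5 and the MEF2 factors. KLF6 and KLF10 are known as early responders to serum, injury or TGF-beta, KLF9 responds to glucocorticoids and thyroid hormone, and in neurons KLF7 is known to favour axon growth while KLF4 and KLF9 restrain it. The comparison of SWT with control asks whether these genes differ between libraries of treated and untreated cells.

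The DNA before the KLF2 gene is shown because KLF2 had the smallest p-value of the KLF genes tested and because MEF2 factors are known to act there. The stretch covers chr19:16324576-16324806 of GRCh38.p14 on the plus strand, from RefSeq, and ends 20 bases before the RefSeq transcription start. Capitals mark its match to the MEF2 motif.

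KLF2: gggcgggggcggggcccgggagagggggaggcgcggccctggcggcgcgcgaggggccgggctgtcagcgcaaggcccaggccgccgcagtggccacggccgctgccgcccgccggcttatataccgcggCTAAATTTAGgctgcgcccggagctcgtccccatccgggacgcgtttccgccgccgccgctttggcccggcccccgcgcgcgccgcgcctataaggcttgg

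The match lies 120 to 111 bases before the start, in a stretch whose GC content is 78.4%. RefSeq start windows, which hold 250 bases before and 50 after a start, were matched for 8 of the 10 genes (13 windows). A MEF2 match occurred in 1 of the 13 windows, that of KLF2, and such a match occurs in 2.99% of all 35116 windows. The GC box GGGCGG, an element bound by SP and KLF proteins, occurred in at least 1 window of 7 of the 8 genes, all but KLF9. Counted by window, since some genes have several, it occurred in 8 of the 13 (61.5%) and in 45% of all windows. The sequence CACCC, a core of KLF binding sites, occurred for 4 of the 8 genes (KLF5, KLF7, KLF11 and KLF13), in 7 of the 13 windows (53.8%) and in 59.9% of all windows. TATAAA, the TATA box core, occurred in 1 of the 13 windows, of KLF5, and in 11.5% of all windows, and the CArG motif of SRF in 1 of the 13, of KLF7, and in 1.29% of all. Both strands were searched for each motif. A TATAAA can lie within a MEF2 match, and the KLF2 window held no TATAAA. A match is a description of letters and not of binding.

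The libraries held 9888263 to 11686808 counts. Levels are given as CPM, each count scaled to the total of its library. The limit that a count of 0 allows lay between 0.257 and 0.303 CPM, for counting error only. The line's labelled identity was only partly visible. Of 12 noradrenergic neuroblastoma markers, 6 had 0 counts in all libraries, among them PHOX2A, TH, DBH, CHGA and MYCN. HAND2 at 48.89 to 54.15 CPM and GATA2 at 13.17 to 19.04 CPM were the 2 that reached 10 CPM in every library. ISL1, GATA3 and CHGB were lower but were tested. The 12 summed to 73.9 to 82.3 CPM. The 12 mesenchymal and fibroblast markers summed to 10830 to 12400 CPM, with VIM, COL1A1, COL3A1 and FN1 each at 1647 CPM or more in every library. Of the 12, 7 reached 10 CPM in every library, while COL1A2, DCN, SNAI2 and PDGFRA stayed at 1.69 to 5.66 CPM. Control replicate 2 stood apart by heart muscle transcripts, with 328.2 CPM over 12 such genes against 8.09 CPM in control replicate 1, 33.5 CPM in SWT replicate 1 and 10.2 CPM in SWT replicate 2. Their part in the values of the KLF genes was not tested, and values without each library are given for the KLF genes below. Of 10 endothelial markers 5 stayed under 1 CPM in every library, among them CDH5, KDR and CLDN5 with at most 3 counts in any library. EGFL7 stood at 13.98 to 18.85 CPM, and PECAM1, TEK, VWF and ESAM reached at most 2.975 CPM in any library. Of 8 leukocyte markers 7 stayed under 1 CPM, and CD68 stood at 43.9 to 48.6 CPM.

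None of the 10 genes passed the test between SWT and control. Over the 12399 genes tested with edgeR's quasi-likelihood method, 0 were higher (0%) and 0 lower (0%) at an adjusted p of 0.05, and 715 genes (5.77%) had an unadjusted p under 0.05, among them 1 of the 9 KLF genes tested, KLF2. On the same 12399 genes limma-voom called 0, with 721 at an unadjusted p under 0.05. DESeq2, run on 17737 genes without that filter, called 0, with 116. KLF13 was left out by the filter on low counts. The fold changes of the other 9 lay above 0 for 8 genes, where 49.7% of all genes tested did so, and below 0 for KLF9. Their median log2 fold change was 0.066, against -0.00078 over all genes tested. Both SWT libraries lay above both controls for 4 of the 9 genes, KLF2, KLF6, KLF7 and KLF11, where 17.3% of all genes did so, and below both for 1, KLF9, where 18% did so. Summed over the 10 genes, the family held 302.9 and 310.2 CPM in the controls and 325.8 and 324.2 CPM in the SWT libraries. That sum was not tested between the groups. It is a share of all counts and cannot tell more transcripts per cell from more cells that hold them.

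**Figure D1:**
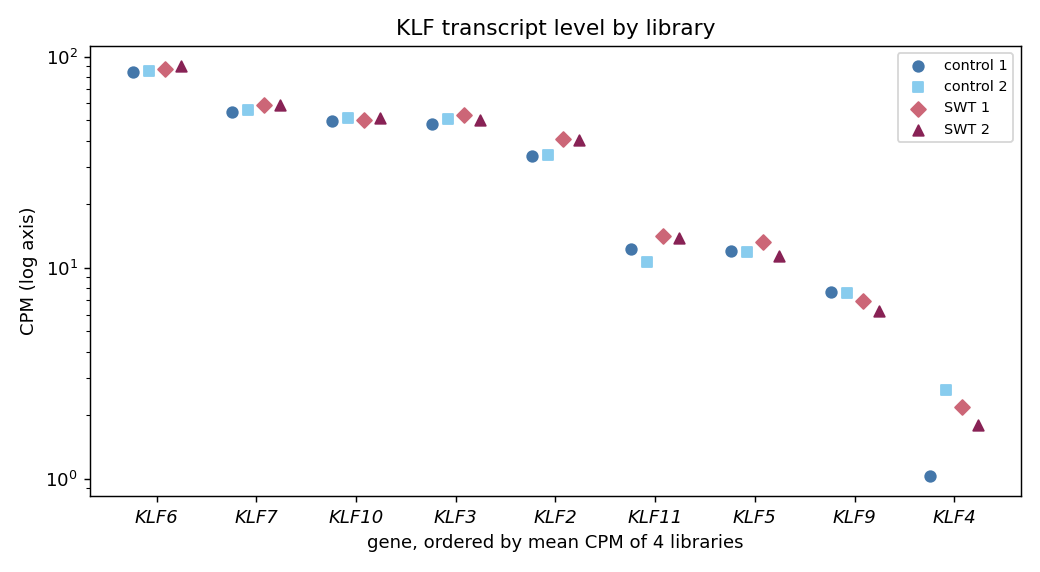
Each point is the level of a gene in 1 library, in CPM on a log axis, for the 9 KLF genes with counts, ordered by their mean over 4 libraries. KLF6 lies between 84.3 and 89.9 CPM, KLF2 shows both SWT points near 40 CPM above both control points near 34 CPM, and KLF4 spreads from 1.03 to 2.63 CPM.

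KLF2 (chr19:16324817-16327874 in GENCODE 29 on GRCh38) is the flow-responsive factor of endothelium and a factor of quiescence in T cells. It had 392 and 339 counts in control replicates 1 and 2, and 409 and 471 counts in SWT replicates 1 and 2. Scaled to library size these were 33.7 and 34.2 CPM in control and 40.6 and 40.4 CPM in SWT. Both SWT libraries lay above both controls, and the libraries of a group differed from each other by 0.02 (control) and -0.01 (SWT) on the log2 scale, replicate 2 minus 1. The log2 fold change was 0.25 (SE 0.08, 95% interval 0.08 to 0.43, n = 2 per group), with an unadjusted p of 0.00709 and an edgeR adjusted p of 0.838. By p-value KLF2 stood at rank 84 of the 12399 genes. With 1 library left out at a time KLF2 stood at 0.24 to 0.26, and at 0.26 without control replicate 2, the library with the heart muscle transcripts. The KLF2 transcript has a GC content of 65.2%, the highest of the 10 genes. Across 6293 genes, SWT minus control ran against GC content (Spearman rho -0.403, a description over genes, which are not independent). With each library's trend with GC content and length removed, KLF2 stood at 0.305 (edgeR adjusted p = 0.391). GENCODE holds 4 genes named as pseudogenes of KLF2, counted by name without a check of their type. How the counting treated reads shared with them is not given in the sources used here.

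KLF4 (chr9:107484852-107490482), a factor of epithelial differentiation, of endothelium under flow and of reprogramming to pluripotency, was the lowest of the genes with counts. It had 12 and 26 counts in the controls and 22 and 21 counts in the SWT libraries, or 1.03, 2.63, 2.18 and 1.80 CPM in that order. The 2 controls enclosed both SWT libraries. The log2 fold change was 0.16 (SE 0.39, 95% interval -0.66 to 0.97, edgeR adjusted p = 0.979). Without control replicate 2 it was 0.93, and with control replicate 1 left out instead it was -0.41, so its direction depended on which control was kept. The SE of KLF4 was larger than the log2 fold change of KLF2, 0.25, which itself did not pass. A detection limit was not computed for KLF4.

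KLF6 and KLF7 have acidic activation domains of the same type. KLF6 (chr10:3775996-3785281), an early gene of injury and a regulator of TGF-beta receptor genes, had 979 and 843 counts in control and 881 and 1048 in SWT. These were 84.3 and 85.2 CPM in control and 87.4 and 89.9 CPM in SWT, with both SWT libraries above both controls by a small margin. The log2 fold change was 0.07 (SE 0.06, 95% interval -0.07 to 0.20, edgeR adjusted p = 0.928). KLF7 (chr2:207074137-207167267), named for its ubiquitous expression and needed by sensory neurons, had 54.6 and 56.1 CPM in control and 58.7 and 59.0 CPM in SWT. Its groups did not overlap either, and the log2 fold change was 0.09 (SE 0.07, 95% interval -0.06 to 0.24, edgeR adjusted p = 0.911). With the GC and length trend removed it was 0.05, smaller by a factor of 1.75, and KLF6 stood at 0.05.

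KLF5 (chr13:73054976-73077542), a factor of proliferating epithelium and smooth muscle, had 12.1 and 11.9 CPM in control and 13.2 and 11.3 CPM in SWT. The controls lay between the SWT libraries, and the log2 fold change was 0.03 (95% interval -0.27 to 0.32, edgeR adjusted p = 0.995). It was -0.08 without SWT replicate 1.

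KLF10 and KLF11 are TGF-beta-inducible factors that recruit the corepressor SIN3A. KLF10 had 576 and 507 counts in control and 504 and 600 in SWT, which were 49.6 and 51.2 CPM against 50.0 and 51.5 CPM. The groups overlapped, and KLF10 had the smallest range of the 7 KLF genes with at least 100 counts in every library, 0.05 on the log2 scale from the lowest to the highest library. Its log2 fold change was 0.01 (SE 0.07, 95% interval -0.15 to 0.17, edgeR adjusted p = 0.997), and 0.0055 with the GC and length trend removed. KLF11 (chr2:10042849-10054836) had 142 and 105 counts in control and 142 and 161 in SWT, or 12.2 and 10.6 CPM against 14.1 and 13.8 CPM. Both SWT libraries lay above both controls, and the controls differed from each other by -0.20 on the log2 scale, replicate 2 minus 1. The log2 fold change of KLF11 was the largest of the 9 at 0.28 (SE 0.14, 95% interval -0.0039 to 0.57, unadjusted p = 0.0528, edgeR adjusted p = 0.843). Without control replicate 2 it was 0.19, and with control replicate 1 left out instead it was 0.39.

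KLF3, KLF9 and KLF13 are mainly known as repressors, KLF3 with the corepressor CTBP and the other pair with SIN3A. KLF3 (chr4:38664196-38701042) had 555 and 503 counts in control and 532 and 586 in SWT, or 47.8 and 50.8 CPM against 52.8 and 50.3 CPM. Its groups overlapped, and the log2 fold change was 0.06 (SE 0.08, 95% interval -0.10 to 0.22, edgeR adjusted p = 0.938). Without control replicate 1 it was 0.02 and without control replicate 2 it was 0.11, and with the GC and length trend removed it was 0.03. The first 688 bases of KLF3 (chr4:38664196-38664883) lie opposite the antisense gene KLF3-AS1, which had 0 to 3 counts per library. KLF9 (chr9:70384597-70414624) had 89 and 75 counts in control and 70 and 73 in SWT, or 7.66 and 7.58 CPM against 6.94 and 6.26 CPM. Both SWT libraries lay below both controls, which held for no other KLF gene tested. The log2 fold change of KLF9 was -0.21 (SE 0.17, 95% interval -0.57 to 0.15, edgeR adjusted p = 0.912), and it lay between -0.28 and -0.13 with each library left out.

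KLF13, a widely expressed factor that activates the chemokine gene CCL5 in T cells, had 0 counts in all 4 libraries, which allows up to 0.303 CPM in the shallowest. Its gene spans chr15:31326855-31435665 in GENCODE 29. Neighbouring protein-coding genes, looked at after this value was seen, were TRPM1 on one side and OTUD7A, CHRNA7 and GOLGA8K on the other, each with 0 counts in every library. MTMR10 had 17 to 27 counts and FAN1 17 to 21. Whether KLF13 RNA was absent or its reads were not assigned to the gene cannot be told apart from counts.

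**Figure D2:**
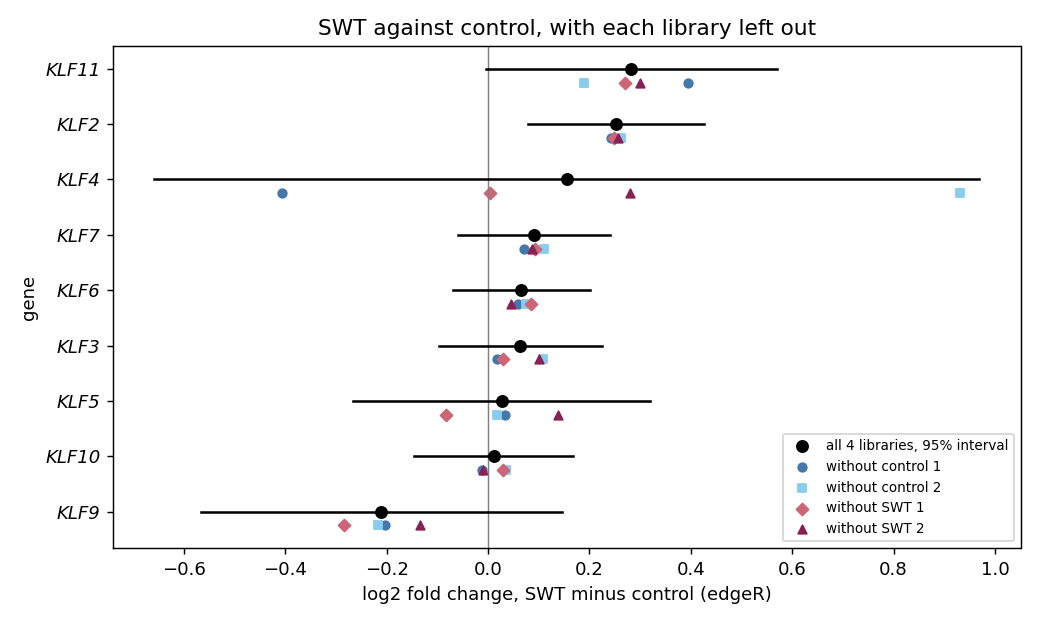
Black points are log2 fold changes of SWT against control from edgeR with 95% intervals, and coloured points are the values with 1 library left out. KLF2 has left-out values within 0.24 to 0.26, KLF4 spreads from -0.41 to 0.93, and the interval of KLF2 is the 1 that does not include 0, before any adjustment over genes.

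Levels of different genes were compared per kb of the longest annotated transcript. KLF6 stood at 18.6 ± 0.538 and KLF2 at 18.4 ± 1.86 CPM per kb (SD, n = 4), and their ranges over the libraries overlapped. KLF10 followed at 13.8 ± 0.251, KLF3 at 9.84 ± 0.401 and KLF7 at 6.83 ± 0.255 CPM per kb, each with a range apart from its neighbours in the order. KLF5 at 3.40 ± 0.219 and KLF11 at 3.14 ± 0.399 CPM per kb overlapped. KLF9 stood at 1.37 ± 0.126 and KLF4 at 0.679 ± 0.240 CPM per kb, each apart from the gene above it. KLF7 took the second place in CPM and the fifth per kb, with a transcript of 8362 bases, against 2018 bases for KLF2. With merged exons as the length, KLF2 stood at 18.4 and KLF6 at 14.1 CPM per kb, so the order of these 2 depended on the transcript model, and the order of the other 7 was the same. Within the flow-responsive pair, KLF2 stood 27.2 times as high as KLF4 per kb. Among relatives outside the 10 genes, KLF16 stood at 12.7 ± 0.714 and KLF12 at 3.47 ± 0.307 CPM per kb, while SP3 and SP1, which bind the same GC boxes, stood at 25.1 ± 1.23 and 16.8 ± 0.279 (SD, n = 4).

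**Figure D3:**
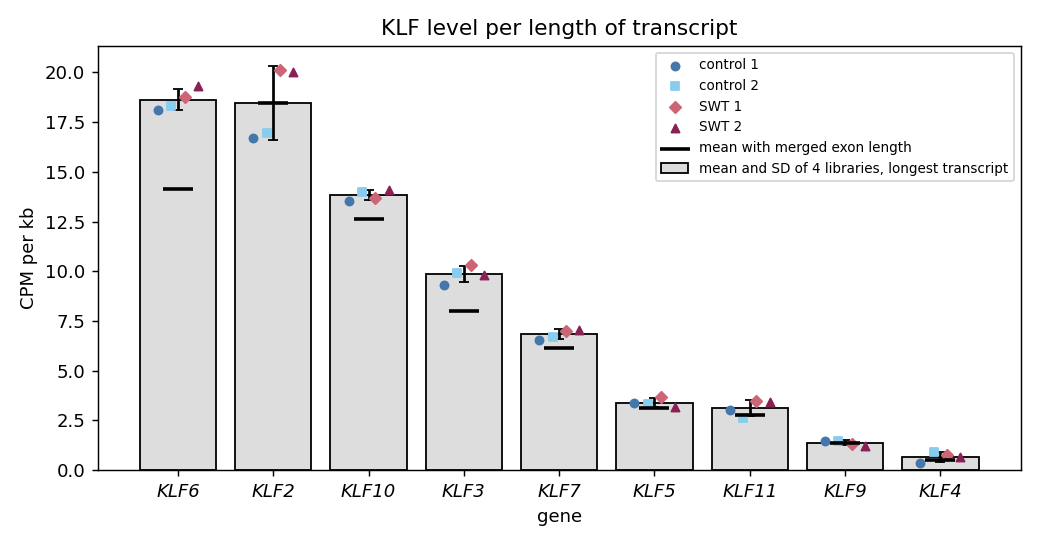
Bars are the mean level over 4 libraries in CPM per kb of the longest transcript, with SD, points are the single libraries, and black dashes are the mean with merged exon length. KLF6 and KLF2 lead at 18.6 and 18.4, and with merged exons KLF6 drops to 14.1.

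The remaining KLF genes and the SP genes, none of which passed the test, included 6 that were tested. KLF12, a repressor that binds CTBP, stood at 0.14 and KLF16 at 0.04 on the log2 scale. KLF1, KLF8, KLF14 and KLF18 had 0 counts in all libraries, and KLF15 and KLF17 had counts in SWT replicate 2 alone, 2 and 4. SP4 had 5.51 and 4.75 CPM in control against 6.45 and 6.78 CPM in SWT, and its log2 fold change was 0.36 (SE 0.18; adjusted p = 0.843 in edgeR). SP2 stood at -0.12 and SP3 at 0.05.

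Of the genes known to act on KLF2 and KLF4 from upstream, 12 of a single pathway were listed. All of these apart from MEF2B were measured at a level fit for testing. In the list of the MEK5, ERK5 and MEF2 pathway, 0 of 11 tested genes were higher and 0 lower, with a median log2 fold change of -0.0075. MEF2A, the MEF2 factor with the smallest p-value, had 54.3 and 62.3 CPM in control and 66.8 and 62.6 CPM in SWT, and its log2 fold change was 0.15 (SE 0.08; adjusted p = 0.845 in edgeR). Both its SWT libraries lay above both controls, by a narrow margin for SWT replicate 2. MEF2C stood at -0.13 and HDAC5, a deacetylase that holds MEF2 factors inactive, at -0.09.

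Cofactors and ligases of KLF proteins gave 0 genes higher and 0 lower of 9 and 6 tested. The medians were 0.011 for cofactors and -0.0011 for ubiquitin ligases. CTBP1, the corepressor of KLF3, stood at 0.10, the acetyltransferase gene CREBBP at 0.07 and SIN3B at -0.05. VHL, a ligase component known to act on KLF4, stood at 0.11, FBXW7, which acts on KLF2 and KLF5, at -0.09, and ITCH at 0.04.

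Genes that KLF2 and KLF4 are known to move in endothelium were mostly low here, and 0 of 8 tested were higher and 0 lower (median 0.017). NOS3 and THBD, endothelial genes raised by KLF2, had 2 to 6 and 2 to 3 counts per library, NPPC and SELE had 0 counts in all, and 6 of the 15 stayed under 1 CPM in every library. VCAM1 and F3, the pair with the smallest p-values, are genes that KLF2 is known to lower in endothelium. VCAM1, an adhesion molecule gene, had 41.2 and 42.6 CPM in control against 31.7 and 37.7 CPM in SWT (log2 fold change -0.27, SE 0.09, edgeR adjusted p = 0.838). F3, the tissue factor gene, had 24.6 and 50.1 CPM in control against 51.7 and 52.6 CPM in SWT (log2 fold change 0.50, SE 0.18, edgeR adjusted p = 0.838). For F3, control replicate 2 lay close to both SWT libraries and control replicate 1 lay alone. Without a filter on low counts F3 passed at 0.51 (edgeR adjusted p = 3.59e-06). It also passed without control replicate 2 at 1.08 (4.98e-22), without SWT replicate 1 at 0.51 (0.00545) and without SWT replicate 2 at 0.485 (0.0431), and it did not pass without control replicate 1. PTGDS had 39 counts in control replicate 2, the library with the heart muscle transcripts, and 0 to 2 in the others.

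Growth and TGF-beta genes known as targets of other KLF factors gave 0 of 12 higher and 0 lower, with a median of 0.056. CCND1, the cyclin D1 gene, had 579.8 and 665.0 CPM in control against 733.3 and 697.1 CPM in SWT (log2 fold change 0.20, SE 0.06, edgeR adjusted p = 0.838). It passed without a filter (0.0304) and without control replicate 2 at 0.30 (3.82e-07). CDKN1A, the p21 gene that KLF4 and KLF6 are known to raise, stood at -0.16, and its groups overlapped. Without control replicate 2 it passed at -0.26 (edgeR adjusted p = 5.04e-05). PLAU stood at 0.09, and without control replicate 2 it passed at 0.20 (0.0118). CCL5 and CDKN2B had 0 counts in all libraries.

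Glucocorticoid receptor targets and clock genes, in which KLF9 is known to take part, gave 0 of 8 and 0 of 10 genes higher and 0 lower, with medians of 0.026 and 0.055. ERRFI1 stood at 0.12, DUSP1 at 0.34 and PER1 at -0.14 on the log2 scale. NR1D2 stood at 0.10, CRY1 at 0.16 and BHLHE41 at 0.18. The list of receptor targets also holds the receptor gene itself, NR3C1, at 0.06. With NR3C1 counted, 4 tested genes of that list lay above and 4 below 0, while KLF9 itself lay below.

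**Figure D4:**
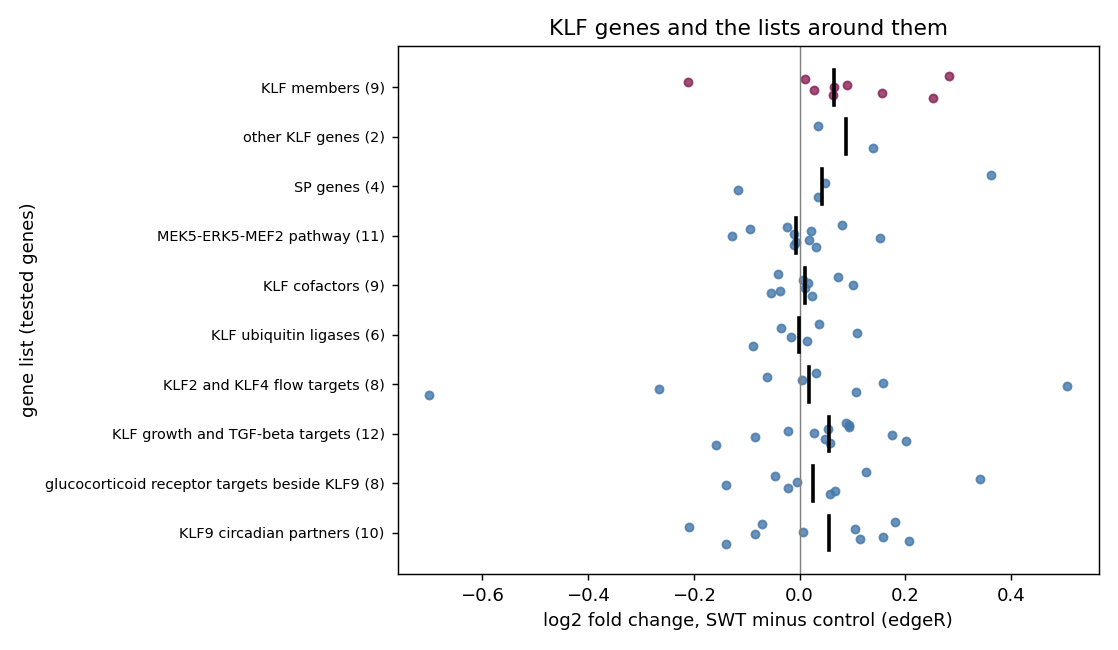
Each point is the log2 fold change of SWT against control for a tested gene, in rows by gene list with the number tested, and black bars are medians. The KLF genes range from -0.21 to 0.28 with a median of 0.066, and the median of the MEK5, ERK5 and MEF2 list is -0.0075.

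KLF11 had the widest range over the 4 libraries among the KLF genes with at least 100 counts in each, 0.40 on the log2 scale. By distance between centred log2 profiles over these 4 libraries, the genes most like it among 9152 were C16orf87 (distance 0.0186), AGK (0.0423), OXNAD1 (0.052), PIBF1 (0.0545) and UBE2S (0.0581). In all of them control replicate 2 was the lowest library and SWT replicate 1 or 2 the highest. Over 4 points this is a description only.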

How the data were processed

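The authors deposited raw counts per gene symbol for 4 libraries, and a second table of log2 values for 17151 genes. Over 6318 genes of higher level, its deviations between libraries followed those of log2 CPM with a slope of 0.375. Genes of lower level were not part of this slope. The submitters' processing notes name build hg38 and, without a role, STAR 2.5.3a, HTSeq, DESeq2, Trimmomatic 0.36 and FastQC 0.11.5. The annotation used and the strand setting are not given in the sources used here. Libraries were stranded mRNA libraries per the labels' protocols.

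Counts were tested with edgeR 4.0.16 (R 4.3.3): TMM, filterByExpr by group, quasi-likelihood F-test over all 4 libraries, Benjamini-Hochberg adjustment over 12399 genes at 0.05. SE was derived from the F statistic and the fitted fold change, and intervals from the t quantile, so both are approximate. CPM use TMM-scaled totals. Alternatives used DESeq2 1.42.0, limma 3.58.1, other scalings and filters, a replicate block, GC and length offsets (known for 97.4% of tested genes) and each library left out. Lengths and positions are from GENCODE release 29 (GRCh38, as hg38).

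Counts were simulated for SWT against control (12399 genes, 5 simulations), with no spread around the dispersion trend and no trend with GC content. Changes were planted only in genes with a mean count of at least 50. Of these, 52.8% changed 1.25-fold and 88.4% at 1.5-fold were recovered, and 4.6% of calls were false. The rates do not cover genes of lower count, such as KLF4. The chi-square between libraries was 3.8 per degree of freedom for the controls and 1.72 for SWT, so no replicates agreed within sampling noise. Pairs of a control and an SWT library gave 2.3, 2.72, 2.79 and 3.83. The controls thus lay about as far from each other as the most distant of these pairs.

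Members and lists were chosen with earlier results of these data known. The KLF genes are named whatever their result, and per list the 3 tested genes of smallest p; others were chosen after their values were seen. Some genes of the lists are not reported here.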

Additional observations from a re-analysis of the deposited data

How the results depend on the processing

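All 9 tested KLF genes stayed outside the adjusted threshold under every alternative run, 12 for each gene (11 for KLF4, which a mean count of at least 50 removes) and 4 with a library left out. Directions were kept under the 12, and KLF2 ranged from 0.065 on the deposited log2 values, whose differences are compressed, to 0.305. With a library left out KLF4 ran from -0.406 to 0.932, KLF5 from -0.083 to 0.138 and KLF10 from -0.0124 to 0.035 (-0.0105 without SWT replicate 2). KLF4, KLF5 and KLF10 changed sign there, and the cause was not tested. Over all genes, 0 higher and 0 lower became 20 and 43 without a filter, and 2 to 106 and 15 to 97 with a library left out, in fits where the lone library is assumed to vary like the other group. With the GC and length trend removed 1 gene was higher, ID1. With the replicate block 0 were higher and 1 lower (MYH6), and with both 2 higher (CTGF, ID1) and 1 lower (MYH6). Same-numbered deviations correlated at -0.283 over 6324 genes, so a shared replicate number gave no sign of pairing. The negative sign ran toward the opposite order. Chi-squares per degree of freedom were 2.3 and 2.72 for control and SWT libraries of unlike number, against 3.83 and 2.79 for like number. The cause was not tested. A crossed replicate block, added after the data were seen, called 55 genes higher and 42 lower, 3 and 1 of them in the fixed lists. In the fixed lists beside the KLF genes, 0 and 0 became 2 higher (CCND1, F3) and 1 lower (PTGDS) without a filter, and 0 to 4 higher and 0 to 1 lower with a library left out. Per kb of merged exons, KLF3 stood at 8.004, KLF5 at 3.11, KLF6 at 14.1, KLF7 at 6.16 and KLF10 at 12.6 CPM per kb. KLF4, at 12 to 26 counts, is limited by depth.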
